A study of Homo sapiens with 9 samples.

Results

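The genes described here were 55 genes of DNA replication and nucleotide synthesis, measured in MCF10A cells, an immortalized human mammary epithelial line that is not tumorigenic. They were chosen by name: a probe set counted for a gene when the platform's annotation named that gene alone, and the probe set with the highest mean of log2 values over all 9 arrays stood for the gene. By the same rule 19775 genes had a probe set on the array and 13726 passed the filter on low signals. All 55 members had one and all 55 passed. The members fell into 9 role groups. These were the genes named MCM (8 genes), origin recognition and licensing (10), partners of the replicative helicase (6), and polymerases and primase (9). Further groups were the sliding clamp, its loaders and Okazaki fragment joining (9), replication protein A (3) and nucleotide synthesis (4). The last were chromatin and methylation inheritance (3) and fork protection (3).

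The study asked how overexpression of the receptor tyrosine kinase ERBB2 and stimulation with epidermal growth factor (EGF), the ligand of the related receptor EGFR, change expression in these cells. All cells carried a pBabe retrovirus. They had been grown in 20 ng/ml EGF and 5% horse serum, and once infected they were kept free of EGF in 2% horse serum. Empty pBabe defined the vector group and pBabe-ErbB2 the group labelled ERBB2, while the EGF group held empty pBabe and received 50 ng/ml EGF for the last 2 h. Each group had 3 arrays labelled as biological replicates. The time between infection and harvest is not given in the sources used here, and the labels do not say whether replicates came from separate infections or cultures, so that p-values reflect only how much these particular samples varied.

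DNA replication starts from origins bound by the origin recognition complex, on which CDC6 and CDT1 load the ring of MCM proteins in G1 phase. At the start of S phase CDC45 and the GINS complex join the MCM ring to form the active helicase, and polymerases, the clamp PCNA and its loader RFC then copy both strands from nucleotides supplied by enzymes such as ribonucleotide reductase and thymidylate synthase. Many of these genes are transcribed in late G1 and S phase under the control of E2F transcription factors, and their transcripts are widely used as a measure of proliferation in mammary epithelium and its tumours.

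The 9 arrays had the same trimmed mean signal, with medians between 15.6 and 20.2. ERBB2 had 3 probe sets of its own. The brightest read 174.0 ± 48.0 (SD, n = 3) for vector, 98.8 ± 23.1 for the ERBB2 label and 104.1 ± 23.3 for EGF, a dimmer one read 12.6, 35.6 and 15.4, and the last one did not separate the groups. The group is therefore called labelled ERBB2. Control transcripts also moved with that label: the ratio of 5′ to 3′ signal of beta-actin was 0.379 ± 0.0553 for vector, 0.737 ± 0.0513 for the ERBB2 label and 0.443 ± 0.0634 for EGF. In the same order the 3′ probe set of 18S ribosomal RNA averaged 3380, 12600 and 2870. Its 5′ probe set averaged 13300, 15900 and 9270. Of 13 basal epithelial markers, 9 had a probe set of their own, all past the filter, and their summed signal ranged from 31350 to 36050 in vector cells, from 22080 to 23230 with the ERBB2 label and from 31880 to 37670 after EGF. The sum over 8 fibroblast markers ranged from 1373 to 1544, from 419.1 to 601.5 and from 538.1 to 589.1 in the same order, and most of it was DCN, at 1345, 378 and 433. The 6 luminal and hormone receptor markers, all with a probe set and 4 past the filter, summed to between 3770 and 4196 with vector, between 6278 and 7167 with the ERBB2 label and between 5357 and 5452 after EGF, without overlap and in the order of most replication genes. Most of that sum was KRT18, at 3559, 6345 and 5099, while GATA3 read 430.3, 296 and 245 and ESR1 22.3, 15.8 and 16.6. Of 8 blood and endothelial markers, 7 had a probe set and 3 passed the filter. The 7 summed to between 249.4 and 265.7 with vector, 258.5 and 329.9 with the ERBB2 label and 253.2 and 292.9 after EGF. With the label 1 of the 3 tested was called higher, at a log2 change of 1.27 (20.8% of all genes were called higher). The part of these shifts in the changes of replication genes was not tested.

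The replication genes rose together in cells labelled ERBB2 and rose in part after EGF. Against vector, 50 of 55 were called higher and 1, RFC5, lower with the ERBB2 label, against 20.8% of all genes called higher and 25% called lower. Their median log2 change was 1.27, with a range from -0.91 to 3.83, where the median of all genes tested was -0.07, and 37 members were called higher by 2-fold or more (6.26% of all genes). ORC2, ORC4, PRIM2 and RFC1 were not called. After EGF, 30 members were called higher and 0 lower by limma, against 17.2% and 18.9% of all genes. At an unadjusted limma p under 0.05, 32 members were higher and 2 lower. By that measure 2784 of the 13726 genes tested were higher and 3445 lower. The members' median after EGF was 0.41, with a range from -0.47 to 2.70, against -0.10 over all genes, and 13 were called higher by 2-fold or more (3.31% of all genes). All changes are differences of log2(signal + 16), which understates the change of dim genes.

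The comparison of the label with EGF itself called 47 members higher in cells labelled ERBB2, against 12.8% of all genes, and ORC2, ORC4 and RFC5 lower, against 16%. The members' median difference was 0.98, and the median over all genes was 0.01. A called rise in all 3 comparisons was found for 25 members, and 21 were called higher with the ERBB2 label against both other groups but not after EGF against vector. For 42 of 55 the group means ranked vector, then EGF, then the ERBB2 label. These counts of patterns were made for the members alone, so how common the patterns are over all genes was not measured. The 3 comparisons share arrays, so their values stand side by side and are not independent of each other.

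The median over the 55 members of log2(signal + 16) was 6.59, 6.77 and 6.54 on the vector arrays, 8.29, 8.49 and 8.25 on the arrays labelled ERBB2 and 7.29, 7.51 and 7.35 after EGF. No array of any group overlapped another group in this value. For 51 members all 3 arrays labelled ERBB2 exceeded all vector arrays (23.6% of all genes), and for 29 all EGF arrays did (21.1% of all genes). For 48 members all arrays labelled ERBB2 exceeded all EGF arrays (20.7% of all genes). Scaling the arrays to equal medians shifted all EGF changes upward, to a median of 0.052 over all probe sets in place of -0.107. It called 33 members higher and 0 lower after EGF where 23.3% of all genes were then called higher and 11% lower, and 67.5% rather than 44.8% of all called probe sets were higher. Under the same scaling 31.8% rather than 48.8% of calls between the label and EGF were higher, and 44 members were higher and 3 lower. Because the RNA came from whole cultures, more cells in S phase and more RNA per cell cannot be told apart, nor can a 2 h treatment be set at a matched time against a virus carried since infection.

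**Figure D1:**
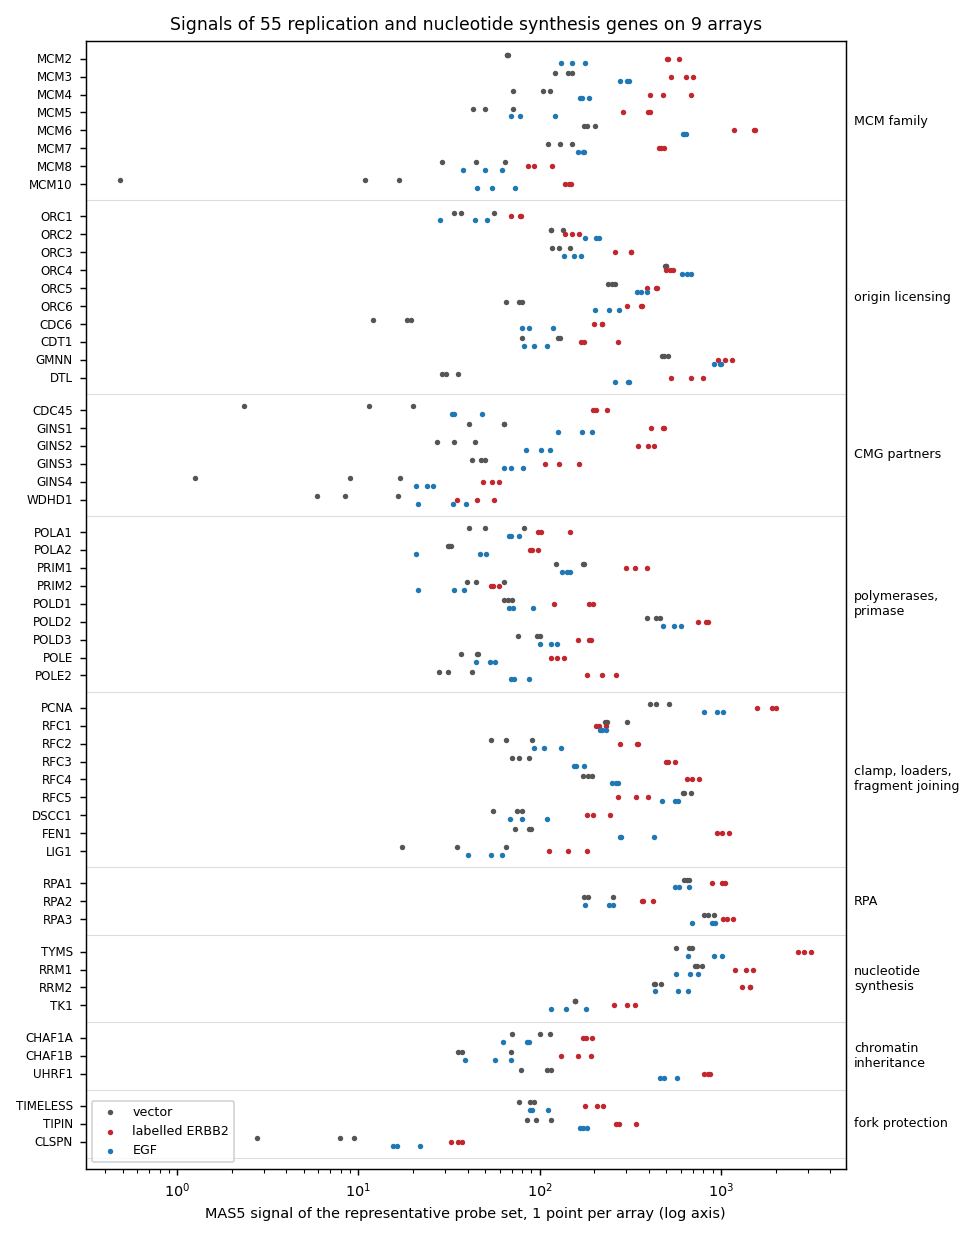
MAS5 signal of the chosen probe set of each of the 55 members on a log axis, 1 point per array, for vector (grey), labelled ERBB2 (red) and EGF (blue), in role groups. The red points lie farthest right for most genes and the blue points between, while for RFC5 the red points lie farthest left and for ORC2 and ORC4 the blue points lie farthest right.

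The proximal promoters of the members are shown first because the members moved together. RefSeq promoter windows on GRCh38.p14, from 250 bases before to 50 bases after a gene's start, matched 48 of the 55 members by gene identifier, 11 of them with several starts. Those not matched were RPA2, GINS4, MCM4, RPA3, DSCC1, POLD3 and MCM5. The windows were searched on both strands for 4 spellings of the E2F-type site, TTTCCCGC, TTTCGCGC, TTTGCCGC and TTTGGCGC. At least 1 of these words was present in 24 of 48 members (50.0%), against 6.32% of 11052 genes tested and 3.99% of all 27305 genes with a window. The members that held one were MCM2, MCM3, MCM6, MCM7, MCM8, ORC3, CDC6, CDT1, GMNN, DTL, GINS1, GINS2, GINS3, POLA1, POLA2, POLE, POLE2, PCNA, RFC3, LIG1, TYMS, UHRF1, TIPIN and CLSPN. Matches on opposite strands overlapped in MCM2, MCM6 and TIPIN. Shown here are the 100 bases before the start of 5 members that hold the word and rose. RFC5 is shown as well, which holds none in its window and whose probe sets changed in opposite directions with the ERBB2 label. Of the 24 members without a match, 19 were also called higher with that label (20.8% of all genes). Among them were FEN1 (3.39), CDC45 (3.12) and MCM10 (2.71), which are not shown. Sequences run 5′ to 3′ on the strand of the gene, and capitals mark an E2F-type match on either strand, so that GCGGGAAA is TTTCCCGC read on the other strand.
DTL, chr1:212035648-212035747, plus strand: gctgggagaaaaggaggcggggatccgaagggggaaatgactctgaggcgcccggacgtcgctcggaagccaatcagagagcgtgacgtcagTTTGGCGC
MCM6, chr2:135876444-135876543, minus strand: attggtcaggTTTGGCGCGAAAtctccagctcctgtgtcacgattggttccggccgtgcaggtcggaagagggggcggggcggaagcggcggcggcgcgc
GINS2, chr16:85688955-85689054, minus strand: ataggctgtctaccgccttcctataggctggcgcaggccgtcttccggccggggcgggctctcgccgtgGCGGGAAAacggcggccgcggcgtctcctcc
RFC3, chr13:33818049-33818148, plus strand: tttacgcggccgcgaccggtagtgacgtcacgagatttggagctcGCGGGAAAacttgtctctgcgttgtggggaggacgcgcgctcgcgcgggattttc
TYMS, chr18:657553-657652, plus strand: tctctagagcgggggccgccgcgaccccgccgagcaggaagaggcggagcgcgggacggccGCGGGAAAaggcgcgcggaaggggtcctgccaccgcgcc
RFC5, chr12:118016603-118016702, plus strand: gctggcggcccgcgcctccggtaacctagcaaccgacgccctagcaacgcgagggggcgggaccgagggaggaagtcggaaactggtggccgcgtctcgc

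In the DTL window the match ended at the base before the start, and in that of MCM6 the match on the strand of the gene and the match on the other strand shared 4 bases. The members with an E2F-type match had a median log2 change of 1.86 with the ERBB2 label, and 24 of 24 were called higher. Those without one had a median of 0.97 and 19 of 24 were called higher, where 20.8% of all genes were. RFC5 is among those without a match and counts there as lower, by its chosen probe set. After EGF the medians were 0.82 with a match, where 16 were called, and 0.24 without, where 11 were called (17.2% of all genes). Between the label and EGF the medians were 1.04 and 0.96. Genes outside the members were not split by motif. A CCAAT box was found in 31 of 48 members (64.6%, against 42.8% of genes tested), the E-box word CACGTG in 9 (18.8%, against 12.2%) and the CHR word TTTGAA in 1, RRM1 (2.08%, against 14.4%). The split ran the other way for the CCAAT box, with a median of 1.18 with the label for members that held it and 1.51 for the others, and for the E-box, with 1.08 and 1.43. After EGF these medians were 0.36 and 0.47 for the CCAAT box and 0.36 and 0.48 for the E-box. All these medians describe the members and were not tested. A match is a run of letters and does not show that a factor binds there.

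**Figure D2:**
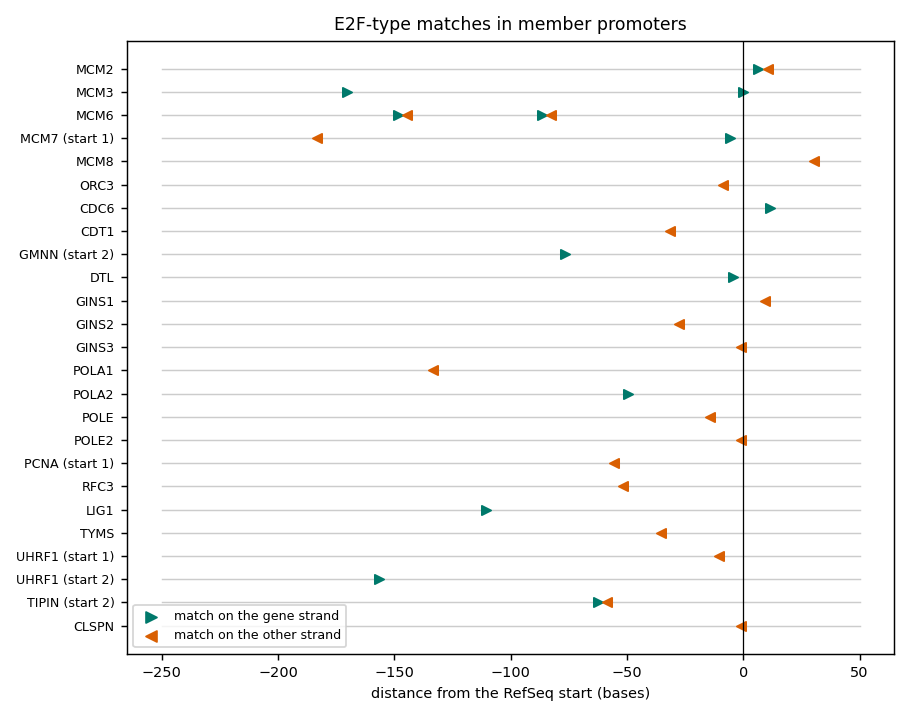
Position of each E2F-type match relative to the RefSeq start, in bases, for the 24 members with one. Grey lines mark the searched window from 250 bases before to 50 after the start, triangles pointing right are matches on the strand of the gene and those pointing left are on the other strand, and most matches lie within 100 bases before the start or just after it.

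The genes named MCM, the 6 subunits of the replicative helicase together with MCM8 and MCM10, rose as a whole in cells labelled ERBB2. All 8 were called higher (20.8% of all genes), with a median log2 change of 2.34. After EGF 7 were called higher (17.2% of all genes), with a median of 0.90. MCM6, a helicase subunit, read 203, 183 and 175 on the vector arrays, 1171, 1523 and 1539.6 on the arrays labelled ERBB2, and 619, 625 and 640.1 after EGF. The groups did not overlap and the arrays within each lay close together. It rose by 2.81 ± 0.11 (SE) on the log2 scale with the label (6.99-fold, limma adjusted p = 6.231e-14) and by 1.67 ± 0.11 after EGF (3.18-fold, limma adjusted p = 3.954e-10). MCM8, which acts in homologous recombination and is no part of the loaded ring, read 64, 44.4 and 28.9 on the vector arrays, 93.5, 86.5 and 117 on the arrays labelled ERBB2, and 37.6, 49.9 and 61.7 after EGF. Its vector and EGF arrays overlapped and the arrays labelled ERBB2 were above both. It rose by 0.93 ± 0.22 with the label (limma adjusted p = 0.00167) and differed by 0.11 ± 0.22 after EGF (limma adjusted p = 0.7496).

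MCM10, which helps to activate the helicase, was dim in vector cells, at 10.9, 16.7 and 0.485, and rose by 2.71 with the label and 1.58 after EGF. The other helicase subunits rose with the label by 2.74 (MCM2), 2.05 (MCM3), 2.24 (MCM4), 2.43 (MCM5) and 1.73 (MCM7). After EGF they rose by 1.03, 1.03, 0.78, 0.57 and 0.36 in the same order. Within the hexamer the EGF change thus ran from 0.36 for MCM7 to 1.67 for MCM6, while the change with the label ran from 1.73 to 2.81. The EGF calls of MCM5 and MCM7 rested on single arrays. MCM5 was no longer called without vector replicate 1 or 3 or EGF replicate 2, at 0.364 to 0.529, and over 21 alternatives its limma adjusted p lay between 0.007276 and 0.1876. MCM7 was no longer called without vector replicate 1 or 3 or EGF replicate 2 or 3, at 0.259 to 0.357, with a range of 0.003047 to 0.1514. Between the label and EGF, all 8 were called higher (12.8% of all genes), with a median of 1.26. The call of MCM8 there ended without EGF replicate 1 (0.676). That of MCM10 ended with a pseudocount of 1, with limma adjusted p between 3.806e-05 and 0.1399 over 21 alternatives.

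Licensing genes were mixed in their calls. With the ERBB2 label 8 of 10 were called higher and 0 lower by limma (20.8% and 25% of all genes), with a median of 0.94. At an unadjusted p under 0.05 also 0 were lower, beside 3938 of 13726 genes tested. After EGF 7 were called higher (17.2% of all genes), with a median of 0.58. DTL, the substrate receptor of the ubiquitin ligase that removes CDT1 in S phase, had the largest rise among the chosen probe sets. With a pseudocount of 1 it rose by 4.35, less than CDC45 (4.47) and MCM10 (4.42), and the second RRM2 probe set rose by more as well. DTL read 30.2, 35.3 and 28.9 on the vector arrays, 527, 681 and 791 on the arrays labelled ERBB2, and 307, 312 and 259.7 after EGF. Each group stood apart from the other groups by a wide margin. The rise was 3.83 ± 0.14 with the label (14.2-fold, limma adjusted p = 4.805e-14) and 2.70 ± 0.14 after EGF (6.50-fold, limma adjusted p = 2.975e-11).

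ORC4, a subunit of the origin recognition complex, read 499.7, 492 and 495 on the vector arrays, 498, 541 and 525 on the arrays labelled ERBB2, and 612, 681 and 651 after EGF. The EGF arrays were the highest and stood apart from both other groups, whose ranges overlapped. It differed by 0.07 ± 0.09 with the label (limma adjusted p = 0.5702) and rose by 0.38 ± 0.09 after EGF (limma adjusted p = 0.002468). ORC2 behaved alike in its calls, with 0.28 under the label, not called, and a rise of 0.64 after EGF. Both were lower with the label than after EGF, by -0.31 for ORC4 and -0.36 for ORC2. For ORC4 this call ended without EGF replicate 2 (-0.269), with limma adjusted p between 0.002065 and 0.1735 over its alternatives. That of ORC2 ended without vector replicate 3, ERBB2 replicate 1 or 2, or EGF replicate 1 or 3 (-0.364 to -0.309), with a range of 0.01157 to 0.1752.

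ORC3, another subunit, read 146, 128 and 116 on the vector arrays, 259, 319 and 318 on the arrays labelled ERBB2, and 136, 154 and 169.6 after EGF. Vector and EGF arrays overlapped, below all arrays labelled ERBB2. It rose by 1.10 ± 0.13 with the label (limma adjusted p = 1.059e-06) and differed by 0.21 ± 0.13 after EGF (limma adjusted p = 0.2606). CDT1, the loader of the MCM ring, read 79.7, 129 and 125 on the vector arrays, 169, 269.8 and 175 on the arrays labelled ERBB2, and 109.8, 82.3 and 93.4 after EGF. Here too the arrays labelled ERBB2 were highest, and all EGF arrays lay within the range of the vector arrays. It rose by 0.79 ± 0.19 with the label (limma adjusted p = 0.001845) and differed by -0.18 ± 0.19 after EGF (limma adjusted p = 0.5279).

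The other loader, CDC6, rose by 2.82 with the label and 1.76 after EGF, and GMNN, the inhibitor of CDT1, by 1.08 and 0.96. Its difference of 0.13 between the label and EGF was not called (limma adjusted p = 0.3339), and likewise ORC5 (0.20), which had risen by 0.73 and 0.53. ORC6 rose by 2.00 and 1.50. ORC1, the largest subunit, rose by 0.67 with the label and was at -0.03 after EGF, a sign that turned positive under equal array medians (0.135). Its call with the label ended without vector replicate 3 (0.564), and its limma adjusted p lay between 0.005967 and 0.06549 over 21 alternatives. Between the label and EGF, 6 of 10 licensing genes were called higher and 2 lower (12.8% and 16% of all genes). The difference for ORC1 of 0.70 ended without ERBB2 replicate 1 or 2 or EGF replicate 3 (0.52 to 0.677), and that for ORC6 of 0.51 without EGF replicate 1 (0.397).

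The partners of the helicase are CDC45, the 4 GINS subunits and WDHD1. All 6 were called higher in both comparisons with vector (20.8% of all genes with the label, 17.2% after EGF). Their medians were 2.14 for the label and 0.94 for EGF. CDC45, which completes the active helicase, read 11.5, 20.0 and 2.34 on the vector arrays, 197, 204 and 236 on the arrays labelled ERBB2, and 47.8, 33.6 and 32.9 after EGF. The signal in vector cells was near or below the added constant of 16, and the groups did not overlap. It rose by 3.12 ± 0.22 with the label (limma adjusted p = 9.492e-10) and by 1.03 ± 0.22 after EGF (limma adjusted p = 0.001515). WDHD1, which tethers polymerase alpha to the helicase, read 5.94, 16.5 and 8.39 on the vector arrays, 45.0, 56.3 and 34.9 on the arrays labelled ERBB2, and 21.2, 39.0 and 33.3 after EGF. The vector arrays were the lowest, and the other groups overlapped. It rose by 1.23 ± 0.25 with the label (limma adjusted p = 0.000477) and by 0.85 ± 0.25 after EGF (limma adjusted p = 0.01412). Against EGF the label differed by 0.38, which was not called.

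Among the GINS subunits, GINS1 rose by 2.74 with the label and 1.33 after EGF, and GINS2 by 3.0 and 1.19. GINS3 rose by 1.23 and 0.47, and GINS4, dim in all groups, by 1.53 and 0.71. The 3 smaller EGF calls were fragile. That of WDHD1 ended without vector replicate 1 or EGF replicate 2 or 3 (0.726 to 0.804), with limma adjusted p between 0.004595 and 0.157. That of GINS3 ended without any of 7 arrays, each of the vector and EGF arrays and ERBB2 replicate 3 (0.393 to 0.534), with a range of 0.002361 to 0.1672. GINS4 lost its EGF call without vector replicate 1 or 3, ERBB2 replicate 2 or any EGF replicate (0.46 to 0.755, range 0.01284 to 0.7121). Its difference of 0.83 between the label and EGF ended without ERBB2 replicate 1 or 2 or EGF replicate 1 or 3 (0.775 to 0.836).

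**Figure D3:**
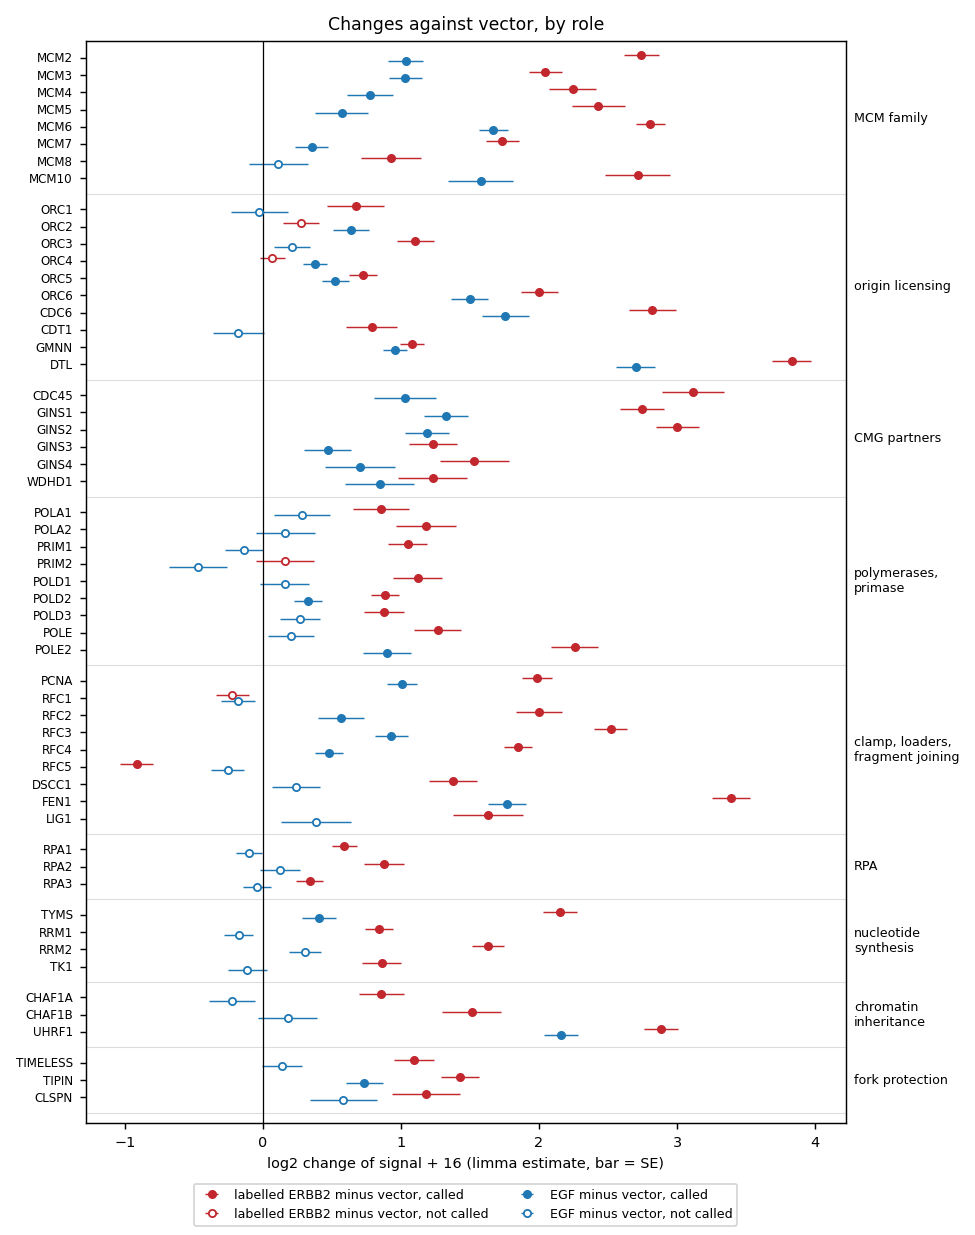
Log2 change of signal + 16 against vector for every member in role groups, labelled ERBB2 in red and EGF in blue, as limma estimates with bars of 1 standard error; filled points were called. DTL is highest at 3.83 and 2.70, and the RPA genes lie near 0 after EGF.

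DNA polymerases and primase rose with the ERBB2 label, and most were not called after EGF. With the label 8 of 9 were called higher (20.8% of all genes), with a median of 1.05. After EGF 2 of 9 were (17.2% of all genes), with a median of 0.20. POLE2, the second subunit of the leading strand polymerase epsilon, read 31.2, 42.0 and 28.0 on the vector arrays, 182, 221 and 264 on the arrays labelled ERBB2, and 72.1, 87.2 and 69.6 after EGF. The groups did not overlap. It rose by 2.26 ± 0.17 with the label (limma adjusted p = 2.116e-09) and by 0.90 ± 0.17 after EGF (limma adjusted p = 0.0004649). PRIM2, the large primase subunit, read 63.5, 39.9 and 44.4 on the vector arrays, 55.4, 53.6 and 59.7 on the arrays labelled ERBB2, and 38.4, 21.4 and 33.8 after EGF. The EGF arrays were the lowest and did not reach the vector arrays, whose range held all arrays labelled ERBB2. It differed by 0.16 ± 0.21 with the label (limma adjusted p = 0.5884) and by -0.47 ± 0.21 after EGF (limma adjusted p = 0.1045), and neither was called.

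POLE, the catalytic subunit of polymerase epsilon, read 36.9, 45.1 and 45.6 on the vector arrays, 124, 115 and 135 on the arrays labelled ERBB2, and 53.4, 56.3 and 44.4 after EGF. The arrays labelled ERBB2 stood far above the others, and 1 EGF array fell inside the vector range. It rose by 1.27 ± 0.17 with the label (limma adjusted p = 4.145e-06) and differed by 0.20 ± 0.17 after EGF (limma adjusted p = 0.4128). POLA2, an accessory subunit of polymerase alpha, read 32.5, 31.4 and 31.2 on the vector arrays, 98.0, 90.6 and 88.4 on the arrays labelled ERBB2, and 20.9, 50.2 and 46.5 after EGF. The EGF arrays lay on both sides of the vector arrays. It rose by 1.18 ± 0.22 with the label (limma adjusted p = 0.0001619) and differed by 0.16 ± 0.22 after EGF (limma adjusted p = 0.6287).

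The catalytic subunits POLA1 and POLD1 rose with the label by 0.86 and 1.12, the small primase subunit PRIM1 by 1.05, and the polymerase delta subunits POLD2 and POLD3 by 0.88 and 0.88. After EGF they were at 0.28, 0.16, -0.14, 0.33 and 0.27 in that order, of which only POLD2 was called. The EGF call of POLD2 ended without vector replicate 3 or EGF replicate 2 or 3 (0.253 to 0.316), with limma adjusted p between 0.001475 and 0.1108. PRIM1 turned positive after EGF under equal array medians (0.023). All 9 were called higher with the label than after EGF (12.8% of all genes), with a median of 0.96. The calls of POLA1 (0.57) and PRIM2 (0.63) each ended without any 1 of 5 arrays. For POLA1 these were ERBB2 replicate 1 or 3 or any EGF replicate (0.403 to 0.645, range of limma adjusted p 0.02016 to 0.2136), and for PRIM2 any ERBB2 replicate or EGF replicate 2 or 3 (0.471 to 0.678, range 0.01539 to 0.1579).

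The clamp, its loaders and the enzymes that join Okazaki fragments made up 9 members. With the ERBB2 label 7 were called higher and 1 lower (20.8% and 25% of all genes), with a median of 1.85. After EGF 5 were called higher (17.2% of all genes), with a median of 0.48. FEN1, the nuclease that trims Okazaki fragments, read 73.0, 89.8 and 87.6 on the vector arrays, 952, 1112 and 1009 on the arrays labelled ERBB2, and 281, 425 and 279 after EGF. Every group stood apart. It rose by 3.39 ± 0.14 with the label (10.5-fold, limma adjusted p = 2.325e-13) and by 1.77 ± 0.14 after EGF (3.41-fold, limma adjusted p = 7.523e-09). LIG1, the ligase that seals the fragments, read 17.3, 65.0 and 34.9 on the vector arrays, 113, 182 and 143 on the arrays labelled ERBB2, and 40.3, 61.6 and 54.0 after EGF. The vector arrays spread widely and all EGF arrays fell inside their range. It rose by 1.63 ± 0.25 with the label (limma adjusted p = 2.899e-05) and differed by 0.39 ± 0.25 after EGF (limma adjusted p = 0.2868), which was called without vector replicate 2 (0.71, range of limma adjusted p 0.03201 to 0.8693).

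DSCC1, part of an alternative clamp loader, read 55.2, 80.0 and 75.2 on the vector arrays, 197, 181 and 243 on the arrays labelled ERBB2, and 68.7, 110.3 and 80.0 after EGF. Again the arrays labelled ERBB2 were the highest and the other groups overlapped. It rose by 1.38 ± 0.17 with the label (limma adjusted p = 2.333e-06) and differed by 0.24 ± 0.17 after EGF (limma adjusted p = 0.3415). The clamp itself, PCNA, rose by 1.98 with the label and 1.01 after EGF. Its loader subunits RFC2, RFC3 and RFC4 rose by 2.00, 2.52 and 1.85 with the label and by 0.57, 0.93 and 0.48 after EGF. The EGF call of RFC2 ended without vector replicate 3 or EGF replicate 2 (0.429 to 0.446), with limma adjusted p between 0.0009465 and 0.08164. RFC1, the large subunit, was at -0.22 and -0.18 and was called in neither comparison.

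RFC5 was the only member called lower with the label by its chosen probe set, and its other probe sets went the opposite way. The chosen one read 616, 679 and 622 on the vector arrays, 339, 395 and 271 on the arrays labelled ERBB2, and 554, 581 and 469.6 after EGF. The arrays labelled ERBB2 were the lowest, and the EGF arrays lay below the vector arrays as well. The change was -0.91 ± 0.12 with the label (limma adjusted p = 3.281e-06) and -0.25 ± 0.12 after EGF (limma adjusted p = 0.1227, not called). A further RFC5 probe set read 79.7, 75.6 and 79.9 on the vector arrays, 266, 296 and 302 on the arrays labelled ERBB2, and 121, 145 and 127 after EGF, a rise of 1.69 and 0.64. The remaining one rose by 1.44 with the label and was at 0.27 after EGF. The mean of the RFC5 probe sets gave 0.737 with the label, 0.217 after EGF and 0.52 between them, so that no direction is stated for the gene. The probe positions were not used here.

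The 3 subunits of replication protein A, which coats single-stranded DNA, rose modestly with the ERBB2 label and were called in no case after EGF. Over all genes 20.8% were called higher with the label, and 17.2% higher and 18.9% lower after EGF. The medians of the 3 subunits were 0.59 and -0.05. At an unadjusted p under 0.05 their count after EGF was also 0, beside 2784 higher and 3445 lower of 13726 genes tested. RPA2 read 253, 184 and 176 on the vector arrays, 365, 419 and 371 on the arrays labelled ERBB2, and 177, 255 and 239.8 after EGF. All arrays labelled ERBB2 lay above the rest and vector and EGF arrays overlapped. It rose by 0.88 ± 0.14 with the label (limma adjusted p = 5.141e-05) and differed by 0.12 ± 0.14 after EGF (limma adjusted p = 0.5778). RPA1, the largest subunit, read 621, 663 and 651 on the vector arrays, 887, 1007 and 1049 on the arrays labelled ERBB2, and 585, 667 and 556 after EGF. Again only the arrays labelled ERBB2 stood apart. It rose by 0.59 ± 0.09 with the label (limma adjusted p = 3.142e-05) and differed by -0.10 ± 0.09 after EGF (limma adjusted p = 0.4735), a sign that turned under equal array medians (0.061).

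RPA3, the smallest subunit, read 847, 916 and 809 on the vector arrays, 1028, 1158 and 1077 on the arrays labelled ERBB2, and 689, 924 and 895 after EGF. By a small margin the arrays labelled ERBB2 were the highest. It rose by 0.34 ± 0.10 with the label (limma adjusted p = 0.01131) and differed by -0.05 ± 0.10 after EGF (limma adjusted p = 0.7929), with 0.115 under equal array medians. Its call with the label ended without vector replicate 3 or ERBB2 replicate 2 (0.292 to 0.298), with limma adjusted p between 0.002881 and 0.08512, and that between the label and EGF (0.38) without EGF replicate 1 (0.252).

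The enzymes of nucleotide synthesis were called higher in all 4 cases with the ERBB2 label (20.8% of all genes), with a median of 1.25. After EGF 1 of 4 was called higher (17.2% of all genes), with a median of 0.10. TYMS, thymidylate synthase, read 562, 666 and 687 on the vector arrays, 2657, 2877 and 3140.3 on the arrays labelled ERBB2, and 656, 1016 and 914 after EGF. All arrays labelled ERBB2 stood far above the rest, and 1 EGF array fell inside the vector range. It rose by 2.15 ± 0.12 with the label (4.45-fold, limma adjusted p = 3.086e-11) and by 0.41 ± 0.12 after EGF (limma adjusted p = 0.0165). The EGF call ended without vector replicate 1 or EGF replicate 2 or 3 (0.277 to 0.353), with limma adjusted p between 0.000259 and 0.1232. RRM1, the large subunit of ribonucleotide reductase, read 781, 719.8 and 736 on the vector arrays, 1193, 1492 and 1375 on the arrays labelled ERBB2, and 566, 677 and 743 after EGF. All arrays labelled ERBB2 lay above the rest, and 2 EGF arrays below all vector arrays. It rose by 0.84 ± 0.10 with the label (limma adjusted p = 1.271e-06) and differed by -0.18 ± 0.10 after EGF (limma adjusted p = 0.2207).

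TK1, the thymidine kinase of the salvage route, read 156, 157 and 156 on the vector arrays, 304, 335 and 257 on the arrays labelled ERBB2, and 140.4, 181 and 116 after EGF. The vector arrays were nearly identical and lay within the spread of the EGF arrays. It rose by 0.86 ± 0.14 with the label (limma adjusted p = 6.229e-05) and differed by -0.11 ± 0.14 after EGF (limma adjusted p = 0.6152), with 0.047 under equal array medians. RRM2, the small subunit of ribonucleotide reductase, read 434, 467 and 424 on the vector arrays, 1313, 1450.0 and 1449 on the arrays labelled ERBB2, and 434, 658 and 582 after EGF. The first EGF array matched the vector arrays and the other two were higher. It rose by 1.63 ± 0.12 with the label (limma adjusted p = 6.882e-10) and differed by 0.31 ± 0.12 after EGF (limma adjusted p = 0.05162).

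The second RRM2 probe set gave a different size. It read 106, 108 and 78.1 on the vector arrays, 1703, 2288 and 2303 on the arrays labelled ERBB2, and 517, 626 and 554 after EGF. There the groups stood apart by a wide margin, and it rose by 4.22 ± 0.13 with the label (18.6-fold, limma adjusted p = 2.297e-15) and by 2.37 ± 0.13 after EGF (5.16-fold, limma adjusted p = 4.452e-11). This probe set has the higher mean on the linear scale and would stand for the gene if that mean were used. The EGF change of RRM2 was called under 7 of 21 alternatives, among them without EGF replicate 1 (0.474), with limma adjusted p between 4.452e-11 and 0.2942.

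Genes that carry chromatin and DNA methylation through replication were called higher in all 3 cases with the ERBB2 label (20.8% of all genes), with a median of 1.51. After EGF 1 of 3 was called higher (17.2% of all genes), with a median of 0.18. UHRF1, which brings the maintenance methyltransferase to new DNA, read 109.7, 115 and 78.9 on the vector arrays, 809, 846 and 869 on the arrays labelled ERBB2, and 486, 461 and 568 after EGF. The groups stood apart, and on the log2 scale the EGF arrays lay closer to the arrays labelled ERBB2 than to the vector arrays. It rose by 2.88 ± 0.12 with the label (limma adjusted p = 4.139e-13) and by 2.16 ± 0.12 after EGF (4.47-fold, limma adjusted p = 9.467e-11). CHAF1A, a subunit of the chromatin assembly factor, read 70.1, 114 and 100.5 on the vector arrays, 194, 172 and 180.5 on the arrays labelled ERBB2, and 84.7, 87.5 and 62.9 after EGF. The arrays labelled ERBB2 were the highest and the other groups overlapped. It rose by 0.86 ± 0.17 with the label (limma adjusted p = 0.0003117) and differed by -0.22 ± 0.17 after EGF (limma adjusted p = 0.3592), where the mean of its probe sets gave 0.1.

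CHAF1B, its partner subunit, read 37.3, 69.2 and 35.5 on the vector arrays, 162, 131 and 191 on the arrays labelled ERBB2, and 56.9, 69.1 and 38.7 after EGF. The EGF arrays lay within the range of the vector arrays. It rose by 1.51 ± 0.21 with the label (limma adjusted p = 9.442e-06) and differed by 0.18 ± 0.21 after EGF (limma adjusted p = 0.5894).

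The 3 genes of fork protection were called higher with the ERBB2 label (20.8% of all genes), with a median of 1.18. After EGF 1 of 3 was called higher (17.2% of all genes), with a median of 0.58. TIPIN read 115, 95.2 and 85.1 on the vector arrays, 264, 339.9 and 272 on the arrays labelled ERBB2, and 167, 182 and 172 after EGF. The groups did not overlap. It rose by 1.43 ± 0.14 with the label (limma adjusted p = 4.652e-08) and by 0.74 ± 0.14 after EGF (limma adjusted p = 0.0003164). TIMELESS, which binds TIPIN at the fork, read 88.8, 92.8 and 76.7 on the vector arrays, 177, 223 and 206 on the arrays labelled ERBB2, and 88.2, 90.4 and 111 after EGF. Only the arrays labelled ERBB2 stood apart. It rose by 1.09 ± 0.15 with the label (limma adjusted p = 4.201e-06) and differed by 0.14 ± 0.15 after EGF (limma adjusted p = 0.5307).

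CLSPN, the adaptor of the checkpoint kinase CHK1, read 2.75, 9.40 and 7.90 on the vector arrays, 37.4, 35.4 and 32.5 on the arrays labelled ERBB2, and 16.3, 21.7 and 15.5 after EGF. All vector signals were below the added constant of 16, and the 3 groups did not overlap. It rose by 1.18 ± 0.25 with the label (limma adjusted p = 0.0006341) and differed by 0.58 ± 0.25 after EGF (limma adjusted p = 0.08483). The EGF change was called under 4 of 20 alternatives, with limma adjusted p between 0.01754 and 0.2373.

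**Figure D4:**
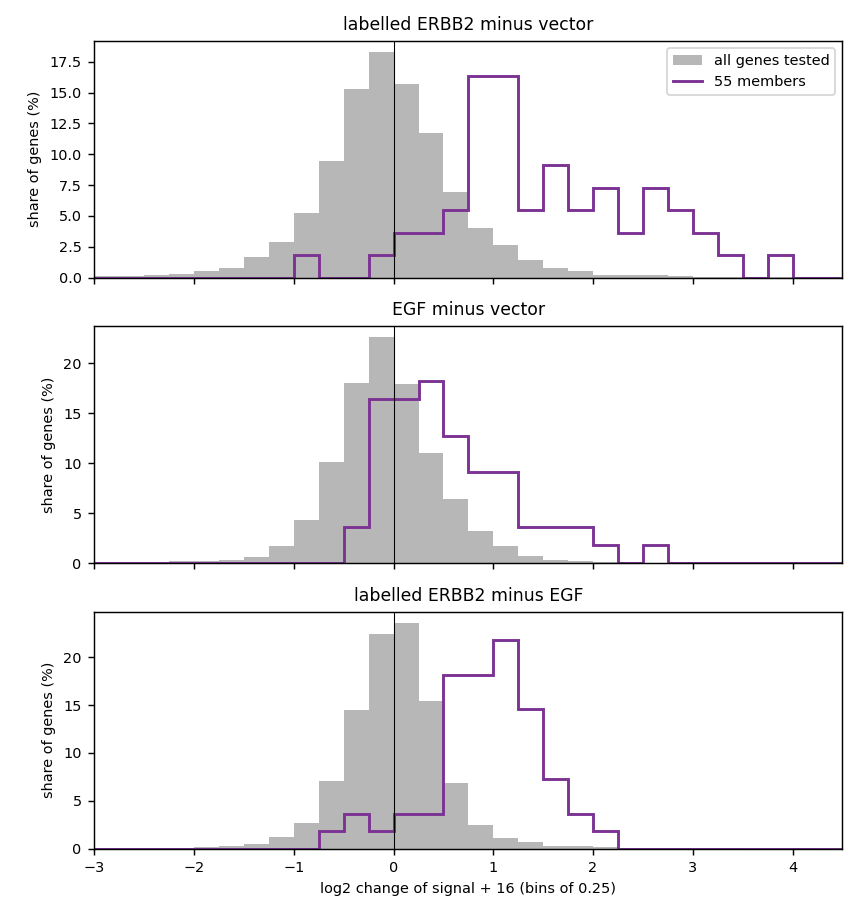
Share of genes in percent, in bins of log2 change, for all 13726 genes tested (grey) and the 55 members (purple line) in the 3 comparisons. The members' medians of 1.27, 0.41 and 0.98 lie to the right of those of all genes, -0.07, -0.10 and 0.01.

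Further probe sets were available for 29 members, 41 in all past the filter. With the ERBB2 label 36 of 41 had the sign of the chosen probe set and 26 were called the same way. Called in the opposite direction were 2, both of RFC5, and 10 were not called where the chosen one was. A further RFC1 probe set was called lower (-0.43). After EGF 31 of 41 had the same sign, 15 were called the same way and 1 was called the opposite way, a dim probe set of GINS4 (-0.82). Averaging a gene's probe sets ended 4 EGF calls, those of ORC2 (0.316), GINS2 (0.321), GINS4 (0.122) and WDHD1 (0.553), and that of MCM8 with the label (0.499). It lowered the change of GINS2 with the label to 1.004, which was still called. Over their alternatives the limma adjusted p of these ended calls reached 0.06479 for ORC2, 0.2836 for GINS2, 0.7121 for GINS4, 0.157 for WDHD1 and 0.06384 for MCM8. Between the label and EGF 37 of 41 had the same sign, and averaging ended the calls of MCM8 (0.539), ORC2 (-0.339) and ORC4 (-0.188).

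**Figure D5:**
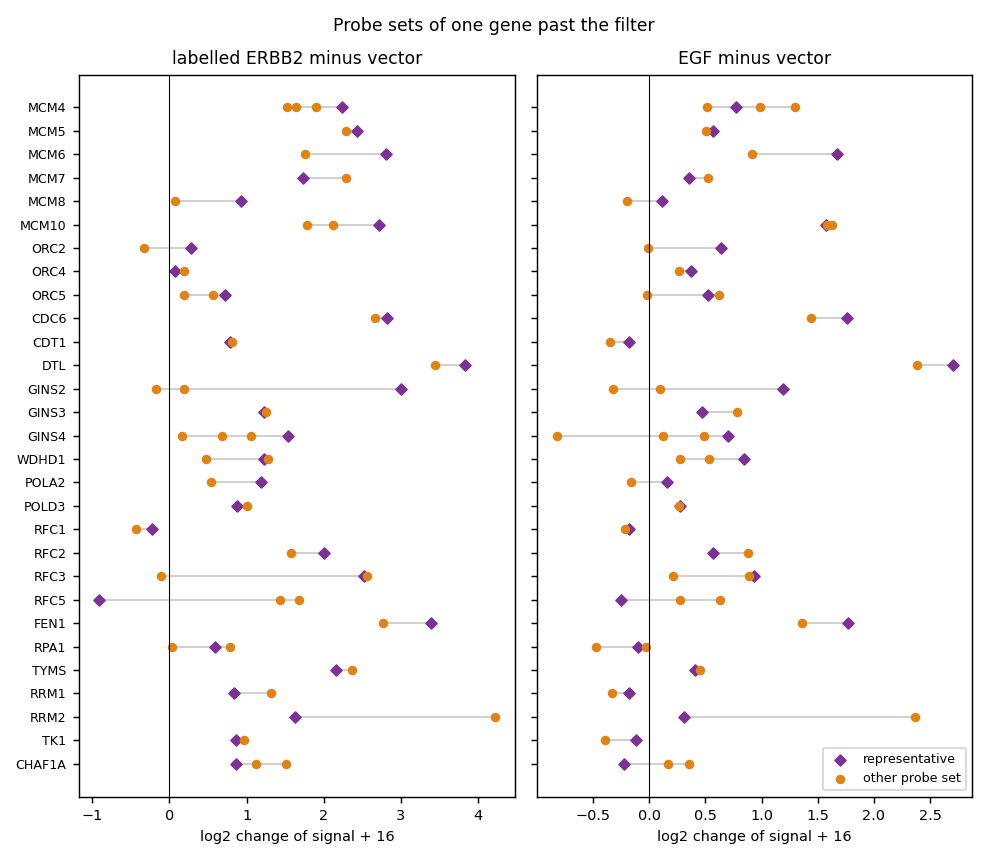
Log2 change of signal + 16 against vector of every probe set past the filter for the 29 members with more than 1, labelled ERBB2 on the left and EGF on the right, with diamonds for the chosen probe set and circles for the others. With the label RFC5 spans -0.91 to 1.69 and RRM2 1.63 to 4.22.

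Most genes in 3 of 4 lists of genes that act beside the members were called higher with the ERBB2 label. Over all genes 20.8% were called higher and 25% lower with the label, and 17.2% higher and 18.9% lower after EGF. Of 27 regulators of S-phase entry, 21 were called higher and 2 lower with the ERBB2 label, with a median of 0.86, and 13 were called higher and 1 lower after EGF, with a median of 0.34. CCNE2, a cyclin E, rose by 2.95 with the label and 1.96 after EGF. CDC25A, the phosphatase that activates CDK2, rose by 2.59 and 1.87, and DBF4, which activates the kinase CDC7, by 1.57 and 1.17. MYBL2, a transcription factor of cycling cells, rose by 2.45 and 0.67, and its EGF call ended without vector replicate 3 or EGF replicate 2 (0.532 to 0.589).

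The listed E2F factors, which leave out E2F6, differed from each other. The repressor E2F7 rose by 2.20 with the label and 0.88 after EGF. With the mean of its probe sets these were 1.161 and 0.266, and the EGF call ended. E2F8, a repressor as well, rose by 1.64 with the label and was at 0.33 after EGF, not called. Its signals were 2.17, 0.996 and 2.13 on the vector arrays and 3.99, 8.23 and 6.85 after EGF. All of these were below the added constant, which understates such a change. Every EGF array exceeded every vector array, as for 21.1% of all genes. Signals this low may be background, so neither a change of E2F8 after EGF nor its absence is stated. E2F3 rose by 0.71 and 0.76. E2F5 rose by 0.52 and 0.93, and its call with the label ended without vector replicate 1 or 3, ERBB2 replicate 1 or 3, or EGF replicate 1 or 2 (0.403 to 0.517). That call ended under 13 of 21 alternatives in all, and the mean of its probe sets ended both calls, at 0.372 and 0.491. E2F1 rose by 0.80 with the label and was at -0.21 after EGF, and its call ended without vector replicate 3 or ERBB2 replicate 1 (0.686 to 0.718). E2F4 rose by 0.66 and was at 0.42 after EGF, called without vector replicate 3 (0.605). E2F2 was at 0.57 and 0.16, and its change with the label was called without vector replicate 2 (0.861).

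Of 35 further replication factors tested, 27 were called higher and 2 lower with the label (20.8% and 25% of all genes), with a median of 1.09. After EGF 11 were called higher and 1 lower (17.2% and 18.9% of all genes), with a median of 0.32. The histone chaperone ASF1B rose by 2.32 with the label and was at 0.37 after EGF, not called. The chromatin remodeller HELLS rose by 2.26 and 0.75, and the maintenance methyltransferase DNMT1 by 1.42 and 1.02. CDCA5, a regulator of cohesin, rose by 2.00 with the label and was at -0.20 after EGF, and RMI2 rose by 1.77 and was at 0.44. The polymerase epsilon subunit POLE3 rose by 1.24 and 1.01, the histone mRNA binding protein SLBP by 1.12 and 0.98, and MCMBP, which binds MCM proteins, by 1.09 and 0.94.

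Of 15 other genes of deoxynucleotide synthesis, 7 were called higher and 2 lower with the label (20.8% and 25% of all genes), with a median of 0.22. After EGF 6 were called higher and 2 lower (17.2% and 18.9% of all genes), with a median of 0.10. The thymidylate kinase DTYMK rose by 1.39 with the label and was at 0.10 after EGF, where the mean of its probe sets gave 0.623 and 0.07. DCTPP1, which degrades surplus dCTP, rose by 1.21 and 0.84, the nucleoside diphosphate kinase NME1 by 1.21 and 0.65, the salvage kinase DCK by 1.14 and 0.69, and the dCMP deaminase DCTD by 0.94 and 0.60. Of 24 genes of purine, pyrimidine and folate synthesis, 17 were called higher and 4 lower with the label, with a median of 0.75. After EGF 16 were called higher and 1 lower, with a median of 0.51, beside the same shares of all genes. CTPS1, which makes CTP, rose by 2.43 and 2.04, and CAD, which starts pyrimidine synthesis, by 1.46 and 1.20. The mean of the CAD probe sets gave 0.836 and 0.335, and the EGF call ended. UMPS, which completes UMP, rose by 1.23 and 1.24, PRPS1, which makes the shared ribose donor, by 1.35 and 0.78, and the purine enzyme PFAS by 1.03 and 0.92. The adenylosuccinate synthase ADSS1 changed by -2.25 with the label and was at -0.06 after EGF. The mean of the ADSS1 probe sets gave -1.2 and -0.382, and the EGF change was then called lower (limma adjusted p = 0.03187). For UMPS that mean gave 0.762 and 0.611, both still called. Set against EGF, the label had 8 of these 24 called higher and 3 lower, with a median of 0.17. Of the 27 regulators 17 were called higher and 2 lower, with a median of 0.72. Over all genes 12.8% were called higher and 16% lower in this comparison.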

How the data were processed

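Total RNA of 9 MCF10A samples was hybridised to 1-colour Affymetrix expression arrays. The deposited table gives a linear signal intensity for each probe set on each array. Per the submitters' processing notes these intensities come from MAS5, whose version is not stated in what was used here. MAS5 scales whole arrays, which can hide part of a shift shared by many genes. Detection calls were not used here. The number of arrays limits the precision.

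Of 54675 probe sets, 41097 were annotated to 1 gene, 1801 to several and 11777 to none, and 41043 matched the RefSeq gene table with 0 symbols updated. Values were analysed as log2(signal + 16). After leaving out 62 control probe sets and those with a mean at or below the 40th percentile, 32769 probe sets were tested with limma 3.58.1 in R 4.3.3 (lmFit and eBayes with a variance trend). One model of the group means used all 9 arrays and had 6 residual degrees of freedom. A Benjamini-Hochberg adjusted p under 0.05 over all probe sets was called. An exact permutation test of 1 gene, at 3 arrays a group, has 0.1 as its smallest two-sided p. The scripts were tested on simulated data.

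The members, the lists and the rules were chosen with earlier results of these data known. All members are named. Values on every array are given, per role group, for up to 4 members: the largest rise, the largest fall or smallest change, and those whose call or sign differed between the comparisons with vector. Of each pathway list, up to 4 genes with the largest called change per comparison with vector are named. All E2F genes of the lists that passed the filter are named too, and E2F6 was not in the lists. The second probe sets of RFC5 and RRM2 are given on every array because they differed from the chosen ones, which was seen in the data. Of the listed genes, 14 had no probe set annotated to them alone. Alternatives were other pseudocounts, filters, scalings, fits and choices of probe set, and leaving out each array. The choice of probe set by its mean linear signal was added after seeing the data.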

Additional observations from a re-analysis of the deposited data

How the results depend on the processing

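Over all alternatives 47 of 51 members called with the ERBB2 label against vector kept their call, 20 of 30 after EGF and 39 of 50 between the label and EGF. Leaving out each array gave 48 to 50, 22 to 30 and 42 to 47 members called higher, and 1, 0 and 2 to 3 called lower. The members' median with the label lay between 1.244 and 1.393 over these, the highest without vector replicate 2. It was 1.559 with a pseudocount of 1 and 0.899 with 64, and the median between the label and EGF was 0.739 with 64. The median after EGF was 0.566 under equal array medians. Of members lower with the label than after EGF, 1 remained by count without a variance trend and 0 with the mean of a gene's probe sets. Without a variance trend the EGF calls of MCM5, MCM7, GINS3, POLD2, RFC2, TYMS and MYBL2 and the call of RPA3 with the label also ended, and without a filter those of MCM5, GINS3 and GINS4 after EGF. A filter at the 60th percentile left 52 members, without GINS4, WDHD1 and CLSPN. With the replicate number as a block, 50, 31 and 47 members were called higher and 1, 0 and 2 lower. Deviations of same-numbered arrays correlated between -0.03 and 0.019 and those of other pairs between -0.04 and 0.044. In 2 of 18 cases an array correlated best with its own number. These values show no pairing by number, and they cannot tell whether arrays shared an infection, a culture or a day of processing. The cause of the shifts between settings was not tested.

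Changes of sign were found mostly in small, uncalled differences. RFC5 was an exception. Its chosen probe set was called lower with the label against vector (-0.91) and against EGF (-0.66), while the mean of its probe sets was called higher in both. After EGF, ORC1 was at 0.123 with quantile normalization. With equal array medians ORC1 was at 0.135, PRIM1 at 0.023, RPA1 at 0.061, RPA3 at 0.115, TK1 at 0.047 and ADSS1 at 0.098. With the mean of a gene's probe sets MCM8 was at -0.04, RFC5 at 0.217 and CHAF1A at 0.1. Leaving out each array, the EGF change ranged from -0.097 to 0.319 for MCM8, from -0.155 to 0.151 for ORC1, from -0.121 to 0.086 for RPA3, from -0.264 to 0.025 for TK1 and from -0.053 to 0.667 for ASF1B. It ranged from -0.334 to 0.067 for CDCA5, from -0.028 to 0.214 for DTYMK, from -0.115 to 0.008 for ADSS1, from -0.391 to 0.038 for E2F1 and from -0.14 to 0.459 for E2F2. With the label against vector, the mean of probe sets put ORC2 at -0.024 and RFC5 at 0.737. Between the label and EGF it put RFC5 at 0.52, UMPS at 0.15 and E2F3 at 0.098. There UMPS was at 0.027 with quantile normalization and 0.005 with array weights, and PFAS at -0.004 with equal array medians. Without 1 array UMPS ranged from -0.093 to 0.05 and PFAS from -0.002 to 0.162.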
